A study of Mus musculus with 4 samples.

Results

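Imprinted genes are a group of mammalian genes that are read mainly from the copy of 1 parent. Here 10 of them were followed through liver tumours and normal liver of mice: H19, Cdkn1c, Phlda2, Slc22a18, Cd81, Gnas, Grb10, Mest, Peg3 and Ndn. They were taken by gene symbol and were chosen with earlier results of these data known. All 10 were found among the 25793 symbols of each count table. The 2 tumours were labelled as from mice with the genotype beta-2SP+/- ; SMAD3+/-, heterozygous for the spectrin adaptor beta-2SP and for the TGF-beta transcription factor SMAD3. A normal liver of the same genotype and a normal liver of a wild type mouse were the other libraries, and the labels give no age, sex or number of animals. The short descriptions of the libraries differ from these labels, since they name Elf and Tcell for tumour 1, Smad and Tcell for tumour 2, Smad and hepatocytes for the normal liver of the same genotype, and hepatocytes for the wild type. Groups follow the genotype and disease labels.

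In the germline, DNA methylation is laid down at imprinting control regions in eggs or in sperm, and each such region then governs a cluster of neighbouring genes. Many imprinted genes act on fetal growth, and several of them, H19 among them, are strongly read in fetal liver and shut down after birth. Of the 10 genes, 7 are known as expressed from the maternal copy (H19, Cdkn1c, Phlda2, Slc22a18, Cd81, Gnas and Grb10) and 3 from the paternal copy (Mest, Peg3 and Ndn). For Cd81 and Gnas this holds in some tissues, such as placenta for Cd81, and for Grb10 the brain is an exception. They belong to 7 imprinted loci, and 7 of the 10 genes lie on chromosome 7. The counts do not separate the parental copies, and methylation was not measured.

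Reads counted in genes came to 11049931 in tumour 1 and 13295216 in tumour 2, against 15950426 and 18448621 in the normal tables labelled double heterozygous and wild type. The targeted genes did not mark the genotype. Spnb2, which encodes beta-2SP, had 16607 and 19149 counts in tumours 1 and 2, against 3364 and 3549 counts in these normal tables, and Smad3 had 4521 and 2174 counts against 426 and 460. After scaling, neither was lower in the normal table labelled double heterozygous than in that labelled wild type. At low counts the normal tables were closer than separate libraries would be. Of 2632 genes averaging 1 to 5 counts, the count was equal in 56.8%, where independent libraries would give 29.3%. Of 3968 genes averaging 10 to 100 counts, 6.40% were equal, where independent libraries would give 4.23%. Their median chi-square between the normal tables was 0.202, under the 0.455 of sampling noise. Of 1883 genes averaging 1000 to 10000 counts, the median chi-square was 4.91, above that of sampling noise. Expected counts came from total counts alone, so an offset in scaling between the tables enters this value. It therefore cannot show whether the sharing ends at high counts. Because of the shared low counts, the normal tables were averaged and used as 1 normal library. Tumour 1 had 0 counts of Xist and 2208 of Ddx3y, and tumour 2 had 6626 and 2, against 9 and 9 of Xist and 1669 and 1860 of Ddx3y in the normal tables. In the RNA of the sex chromosomes tumour 1 thus resembled the normal tables and tumour 2 did not, and sex cannot be told apart from the other differences between tumour 2 and the rest. The labels name a mouse of a different genotype for each normal table, but do not state whether the tumours share an animal. With the normal tables averaged, p-values rest on the spread between the tumours and hold none of normal liver. Of the genes that define liver cells, 8 of 8 hepatocyte markers were lower in both tumours, with a summed level of 1596 and 258 CPM (counts scaled to library size) in tumours 1 and 2, against 223147 and 199308 CPM in the normal tables labelled double heterozygous and wild type. The 6 bile duct markers summed to 2065 and 1787 CPM in tumours 1 and 2 against 39.6 and 34.5 CPM in the normal tables. Of these, 4 of 6 were higher in both tumours, Spp1 held most of the sum, Epcam was lower in tumour 2 (4 counts against 46 and 48) and Cldn7 lower in both (4 and 0 against 15 and 18). All 7 endothelial markers were lower in both tumours. Of 9 T cell markers, 8 were at 0 in tumour 1 and 6 in tumour 2.

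None of the 10 genes passed the test between tumours and normal liver. Their scaled levels lay as follows. Slc22a18, Grb10, Mest and H19 were lower in both tumours than in normal liver, Peg3 and Gnas were higher in both, and Cd81 and Cdkn1c had 1 tumour on each side of the normal level. Both tumours were higher for 2 of the 10 genes and lower for 4, where 43.1% and 40.1% of all genes tested lay that way. Phlda2 was detected in tumour 2 and nowhere else, and Ndn stood at 534 counts in tumour 1 and at 1 or 2 counts in the other tables. Of the 9 genes that passed the filter on low counts, 0 were called higher and 0 lower by edgeR's quasi-likelihood test (Benjamini-Hochberg adjusted p under 0.05 over 14468 genes), against 2.23% called higher and 5.19% called lower, 7.42% in all, of the genes tested. At an unadjusted p under 0.05 there were 2 of 9, Slc22a18 and Grb10, where 28% of all genes tested had such a p. DESeq2 called Peg3 and Ndn higher and Slc22a18 and Grb10 lower, where it called 11.5% of all genes higher and 12% lower. With 2 tumours and 1 normal library, each gene has 1 residual degree of freedom, so a missed threshold does not show that a gene is equal in tumour and normal liver. Over all genes 322 were called higher and 751 lower, and 635 higher and 472 lower when libraries were scaled by total counts only.

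**Figure D1:**
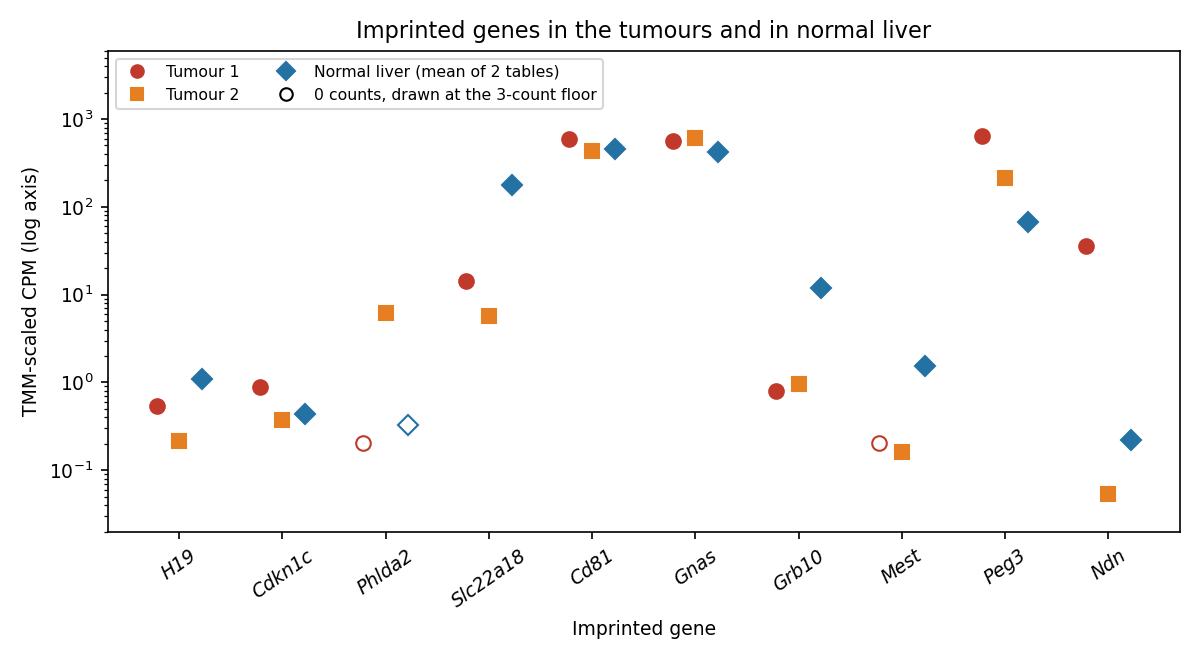
Level of each imprinted gene in tumour 1, tumour 2 and the mean normal library, as TMM-scaled CPM on a log axis. Open symbols, drawn at the floor of 3 counts, stand for 0 counts, while Slc22a18, Grb10, Mest and H19 lie lower in both tumours and Phlda2 and Ndn each stand high in a single tumour.

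Per kilobase of annotated exon, Cd81 was the highest of the 10 in every library. It was at 207 and 148 CPM per kilobase in tumours 1 and 2 and at 158 in normal liver. Gnas came next in the tumours, at 49.7 and 54.2 CPM per kilobase against 37.9 in normal liver. In tumour 1 Gnas and Peg3 (47.6 CPM per kilobase) were nearly level, and in tumour 2 Peg3 was at 15.9. Slc22a18 was the fifth in both tumours at 8.41 and 3.35 CPM per kilobase and the second in normal liver at 105. The places of Phlda2 and Ndn moved farther, since each stood high in 1 tumour (5.46 CPM per kilobase for Phlda2 in tumour 2, 9.74 for Ndn in tumour 1). The other genes were below 10 CPM per kilobase in all libraries. Exon lengths are from GENCODE M21 and may differ from the gene models behind the counts. They join all annotated exons of a gene, which can exceed the length expressed where a gene has several transcripts, such as Gnas. The order depends on these lengths. In CPM, Gnas was above Cd81 in tumour 2 (606 against 427). It was below Cd81 in tumour 1 (556 against 595) and in normal liver (424 against 454).

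The largest group, Cdkn1c, Phlda2, Slc22a18 and Cd81, lies in the IC2 cluster of distal chromosome 7. This cluster is governed by the paternally expressed long RNA Kcnq1ot1, which silences its neighbours on the paternal copy. Slc22a18, a membrane transporter related to organic cation carriers, had 212 and 106 counts in tumours 1 and 2, against 1556 and 1685 counts in the normal tables labelled double heterozygous and wild type. Both tumours were below both normal tables. On the CPM scale it stood at 9.99 ± 6.08 CPM in the tumours (SD, n = 2) and at 178 CPM in normal liver, and its log2 fold change of -4.15 (SE 0.75) missed the threshold (edgeR adjusted p = 0.0532). Whether it passes depends on the processing. It passed with RLE size factors in place of TMM (edgeR adjusted p = 0.0411), without the filter on low counts (edgeR adjusted p = 0.00892), with the normal tables as separate libraries (0.0111) and with DESeq2 (6.58e-05). It missed with upper quartile scaling (edgeR adjusted p = 0.0559), with either normal table alone (0.0536 for the double heterozygous and 0.0503 for the wild type) and with scaling by total counts only (0.0826), which also reduced the log2 fold change to -2.79. The lower Slc22a18 level went with lower hepatocyte markers in the same tumours, and in bulk tissue fewer cells of a type and less RNA per cell cannot be told apart. The part of hepatocyte RNA in this value was not tested.

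Cd81 encodes a tetraspanin of the cell surface that hepatitis C virus uses to enter human liver cells. It had 8834 and 7957 counts in tumours 1 and 2, against 4055 and 4238 counts in the normal tables. After scaling, tumour 1 was at 595 CPM and tumour 2 at 427 CPM, on either side of normal liver at 454 CPM. The log2 fold change was 0.17 (SE 0.66, edgeR adjusted p = 0.886).

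Cdkn1c encodes p57, an inhibitor of cyclin-dependent kinases that slows growth before birth. It had 13 and 7 counts in tumours 1 and 2, against 3 and 4 counts in the normal tables. These counts are low everywhere, with exact 95% Poisson intervals of 6.92 to 22.2 and 2.81 to 14.4 in the tumours and of 0.619 to 8.77 and 1.09 to 10.2 in the normal tables. Intervals and floors cover counting error only. After scaling, tumour 1 lay above normal liver (0.876 against 0.438 CPM) and tumour 2 below it (0.376 CPM). Of the 31-mers of its transcripts, 27.2% also occur in the overlapping gene model Gm44732, which makes its counts uncertain.

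Phlda2 encodes a small protein with a pleckstrin homology domain that limits placental growth. It had 0 counts in tumour 1 and 114 in tumour 2, against 0 counts in both normal tables. A single tumour therefore carried all of its signal, at 6.12 CPM, and tumour 2 was at least 18.6-fold above the floor of 3 counts in normal liver. The fitted log2 fold change (8.45, SE 5.31, edgeR adjusted p = 0.357) rests on that tumour and is no bound.

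Among the other genes of the IC2 cluster, Kcnq1ot1 itself had 1006 and 752 counts in tumours 1 and 2, against 2116 and 2120 in the normal tables, a log2 fold change of -2.10 (SE 0.59, edgeR adjusted p = 0.114). The nucleosome assembly gene Nap1l4 and the lipid transfer gene Osbpl5 lay the other way, with log2 fold changes of 1.29 (SE 0.57) and 0.83 (SE 0.57), and so did Tssc4 at 0.73 (SE 0.69). The potassium channel gene Kcnq1 had 34 and 134 counts in tumours 1 and 2 against 18 and 18. None of these passed the test, and the cluster as a whole did not move in 1 direction. Ascl2, a transcription factor gene at 0 and 6 counts in tumours 1 and 2 and 0 in both normal tables, was too low to be tested.

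**Figure D2:**
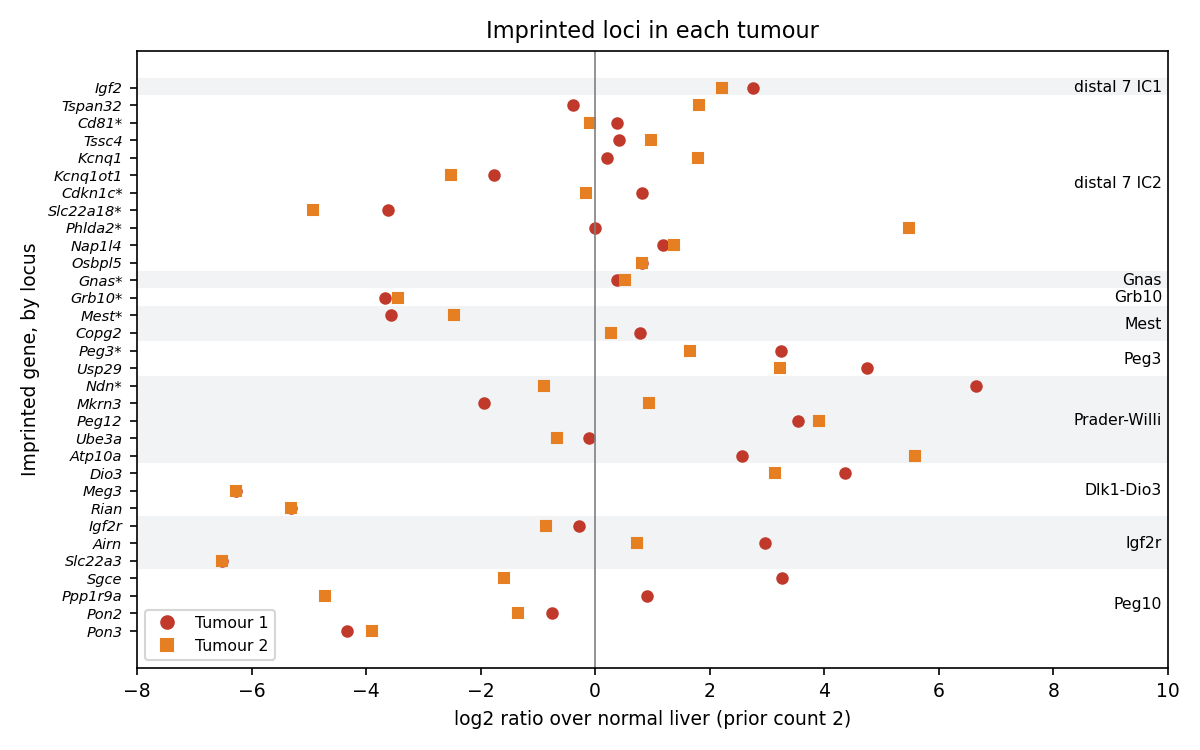
Log2 ratio of each tumour to the mean normal library for imprinted genes of 10 loci that passed the filter on low counts, with a prior count of 2. Asterisks mark the 9 genes described in detail, and genes of the IC2 cluster lie on both sides of 0.

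H19 is a long noncoding RNA of the IC1 cluster and the source of a microRNA, and with Igf2 it is the classical pair of an imprinted locus. H19 had 8 and 4 counts in tumours 1 and 2, against 10 counts in each normal table, too few for the filter. With exact 95% Poisson intervals of 3.45 to 15.8 and 1.09 to 10.2 in the tumours and of 4.79 to 18.4 in each normal table, the counts overlap before scaling to library size. On the CPM scale the ratio to normal liver was 0.492 in tumour 1 (exact 95% interval 0.169 to 1.38) and 0.196 in tumour 2 (0.0448 to 0.679). Igf2, the growth factor gene that is its partner, had 23 and 19 counts in tumours 1 and 2 against 1 and 1, and 63.1% of its 31-mers occur in another gene model. H19 RNA was thus near the floor in tumours and normal liver alike.

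Gnas encodes the stimulatory G protein subunit that couples hormone receptors, such as that of glucagon in liver, to cyclic AMP. It had 8247 and 11290 counts in tumours 1 and 2, against 3761 and 3978 counts in the normal tables. The tumours were at 581 ± 35.6 CPM (SD, n = 2) and normal liver at 424 CPM. This difference was within the error of the fit (log2 fold change 0.45, SE 0.65, edgeR adjusted p = 0.676). The Gnas locus makes several overlapping transcripts, and 19.9% of its 31-mers occur in another gene model, the antisense gene Nespas among them. Without a stated strand setting, reads of the sense and antisense genes cannot be told apart. Nespas had 5 and 3 counts in tumours 1 and 2 and 0 in both normal tables.

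Grb10 encodes an adaptor protein that dampens signals of the insulin and IGF receptors. It had 12 and 18 counts in tumours 1 and 2, against 103 and 115 counts in the normal tables. Both tumours were far below both normal tables, with exact 95% Poisson intervals of 6.20 to 21.0 and 10.7 to 28.4 in the tumours against 84.1 to 125 and 94.9 to 138. The tumours were at 0.887 ± 0.111 CPM (SD, n = 2) and normal liver at 11.9 CPM. The log2 fold change was -3.74 (SE 1.02, edgeR adjusted p = 0.110). None of its 31-mers was found in another gene.

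Mest, also called Peg1, encodes an enzyme-like protein of the alpha/beta hydrolase fold known from fat cell growth. It had 0 and 3 counts in tumours 1 and 2, against 13 and 14 counts in the normal tables. Tumour 1 was at least 7.59-fold lower than normal liver, and the ratio of tumour 2 to normal liver was 0.105 (exact 95% interval 0.0193 to 0.376). The fit gave a log2 fold change of -4.05 (SE 2.29, edgeR adjusted p = 0.315). Of its 31-mers 22% also occur in the neighbouring gene Copg2, which is transcribed from the other strand and had 1049 and 926 counts in tumours 1 and 2 against 347 and 397 (log2 fold change 0.56, SE 0.59, edgeR adjusted p = 0.567).

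Peg3 encodes a large zinc finger protein of the nucleus, read from the paternal copy. It had 9405 and 3949 counts in tumours 1 and 2, against 588 and 636 counts in the normal tables. Both tumours were above both normal tables, and they also differed from each other. The levels were 634 CPM in tumour 1 and 212 CPM in tumour 2, against 67.1 CPM in normal liver, which is 9.45-fold (exact 95% interval 8.70 to 10.3) and 3.16-fold (2.90 to 3.45) higher. The spread between the tumours left the log2 fold change of 2.66 (SE 1.00) short of the threshold (edgeR adjusted p = 0.182). Usp29 starts next to Peg3 and is also read from the paternal copy. It had 54 and 22 counts in tumours 1 and 2 and 0 in both normal tables. Tumours were at least 7.33-fold higher (edgeR adjusted p = 0.175), and 16.1% of its 31-mers occur in another gene. The maternally expressed Zim1 of the same locus had 3 and 1 counts in tumours 1 and 2 and 2 in each normal table.

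The RefSeq start windows of Peg3 and Usp29 (GRCm38.p6, 250 bases before to 50 after the start) point away from each other and share 263 bases. The Peg3 window is shown because both genes had more counts in the tumours. It is chr7:6730370-6730669 on the minus strand, and capitals mark CpG, the dinucleotide that DNA methylation acts on.
Peg3: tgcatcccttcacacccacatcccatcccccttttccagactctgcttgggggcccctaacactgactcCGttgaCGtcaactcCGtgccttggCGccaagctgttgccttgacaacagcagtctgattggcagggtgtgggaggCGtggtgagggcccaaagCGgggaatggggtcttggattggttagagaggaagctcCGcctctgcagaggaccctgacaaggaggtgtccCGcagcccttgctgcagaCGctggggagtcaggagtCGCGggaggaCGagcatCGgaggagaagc
It holds 13 CpG, and 37.9% of the 32851 RefSeq windows hold at least as many.

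Ndn, of the Prader-Willi locus on chromosome 7, encodes necdin, a protein of the MAGE family that restrains division of neurons. It had 534 counts in tumour 1 and 1 in tumour 2, against 2 counts in each normal table. Tumour 1 stood apart from the other 3 tables, at 36.0 CPM, and was 164-fold above normal liver (exact 95% interval 45.2 to 1359). Tumour 2 and normal liver were both at or under the floor of 3 counts. The fitted log2 fold change of 6.30 (SE 3.96, edgeR adjusted p = 0.357) rests on tumour 1. Other paternally expressed genes of the locus were read beside it. Magel2 was at 0 counts in all 4 tables, Mkrn3 had 1 and 26 counts in tumours 1 and 2 against 6 and 6, and Peg12 had 60 and 98 against 2 and 2. Snrpn, at 4 and 0 counts in tumours 1 and 2 and 0 in both normal tables, was too low to compare, and 34.5% of its 31-mers lie in other gene models. Ube3a of this locus is not one of the paternally expressed genes. It had a level of 165 CPM in tumour 1 and 112 CPM in tumour 2, against 177 CPM in normal liver (log2 fold change -0.36, SE 0.58, edgeR adjusted p = 0.715). The phospholipid flippase gene Atp10a had 78 and 814 counts against 6 and 8.

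**Figure D3:**
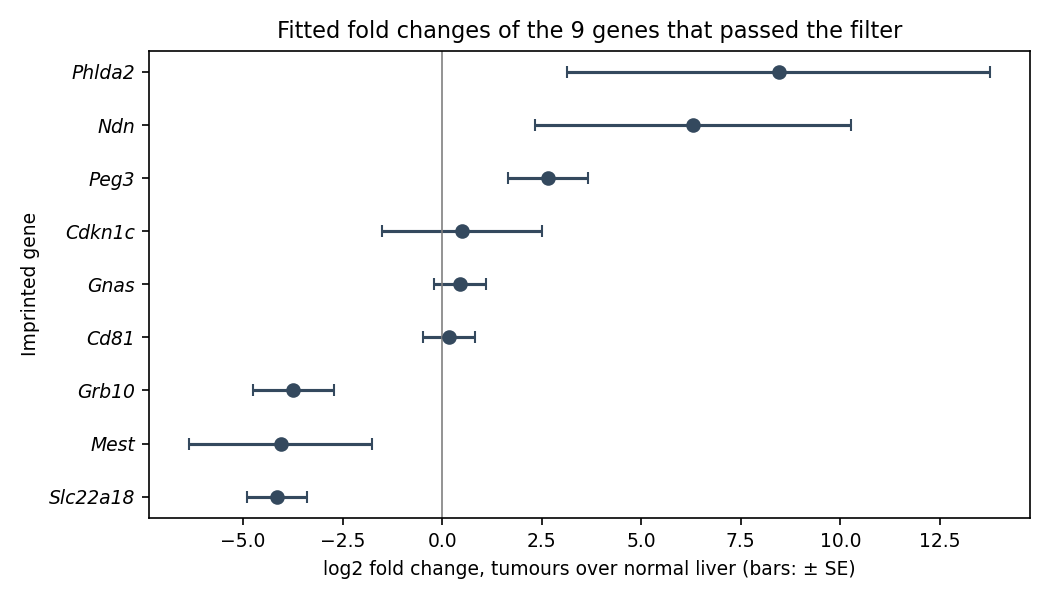
Log2 fold change of tumours over normal liver with its SE for the 9 imprinted genes that passed the filter on low counts. The wide bars of Phlda2 and Ndn belong to genes with all or nearly all of their tumour counts in 1 tumour, and Slc22a18 has the lowest adjusted p (0.0532).

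The tumours were also set against each other, with 1 library on each side and so without a test. With a prior count of 2, 5 of the 9 filtered genes were over 2-fold apart. Slc22a18, Peg3 and Ndn were higher in tumour 1, and Phlda2 and Mest lower. Among all genes tested 14.4% were over 2-fold higher in tumour 1 and 18.7% over 2-fold lower, so such differences are common between these libraries. Mest rests on 0 against 3 counts, for which no fold is given. Over 4-fold were Ndn, 670-fold higher in tumour 1 (exact 95% interval 120 to 26530), and Phlda2, at least 30.3-fold lower in tumour 1, where 5.05% of all genes were over 4-fold higher and 8.83% over 4-fold lower. For Peg3 the ratio of tumour 1 to tumour 2 was 2.99 (exact 95% interval 2.88 to 3.10), close to that of Usp29 at 3.08 (1.84 to 5.31). For Slc22a18 it was 2.51 (1.98 to 3.20). Gnas (0.917), Cd81 (1.39) and Grb10 (0.837, interval 0.368 to 1.84) were within 2-fold, and H19 (2.51, interval 0.673 to 11.4) and Cdkn1c (2.33, 0.864 to 6.90) had intervals that include equality.

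Markers of other cell types differed between the same tumours. The 8 stellate cell and fibroblast markers summed to 4.04 CPM in tumour 1 and 586 CPM in tumour 2. In the normal tables labelled double heterozygous and wild type they summed to 209 and 181 CPM. Between the tumours 7 of 8 were over 2-fold apart in that direction, among them Reln at 0 against 3 counts. The stellate cell marker Lrat was at 0 in both. Against normal liver, 3 of the 8 were lower in both tumours and 1 higher in both. The 5 genes of dividing cells summed to 86.5 CPM in tumour 1 and 1647 CPM in tumour 2, all over 4-fold apart. The 4 leukocyte markers summed to 5.98 CPM in tumour 1 and 0.272 CPM in tumour 2. Their part in the Ndn and Phlda2 values, like that of the difference in Xist and Ddx3y, was not tested.

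The start windows of the genes seen in a single tumour, in RefSeq GRCm38.p6, are shown to set their CpG content side by side. Capitals again mark CpG. Phlda2 is chr7:143502475-143502774 on the minus strand and Ndn chr7:62348027-62348326 on the plus strand.
Phlda2: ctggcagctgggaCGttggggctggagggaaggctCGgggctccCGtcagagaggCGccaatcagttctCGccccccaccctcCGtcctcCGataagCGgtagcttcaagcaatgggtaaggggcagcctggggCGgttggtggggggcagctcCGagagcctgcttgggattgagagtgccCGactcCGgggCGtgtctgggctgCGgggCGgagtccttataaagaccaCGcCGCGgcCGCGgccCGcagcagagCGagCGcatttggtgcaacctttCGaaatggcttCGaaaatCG
Ndn: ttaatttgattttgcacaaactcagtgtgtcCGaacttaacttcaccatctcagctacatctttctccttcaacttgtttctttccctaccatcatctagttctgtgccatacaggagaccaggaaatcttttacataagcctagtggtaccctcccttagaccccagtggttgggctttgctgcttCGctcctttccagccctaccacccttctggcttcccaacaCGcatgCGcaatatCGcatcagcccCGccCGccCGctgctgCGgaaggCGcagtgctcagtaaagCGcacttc
The Phlda2 window holds 26 CpG, which 16.9% of all windows reach or exceed, and that of Ndn 11, which 41.4% reach or exceed. The window of Slc22a18 holds 2. In all, 8 of the 10 genes had an entry, with 14 windows, and H19 and Cdkn1c are named only.

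**Figure D4:**
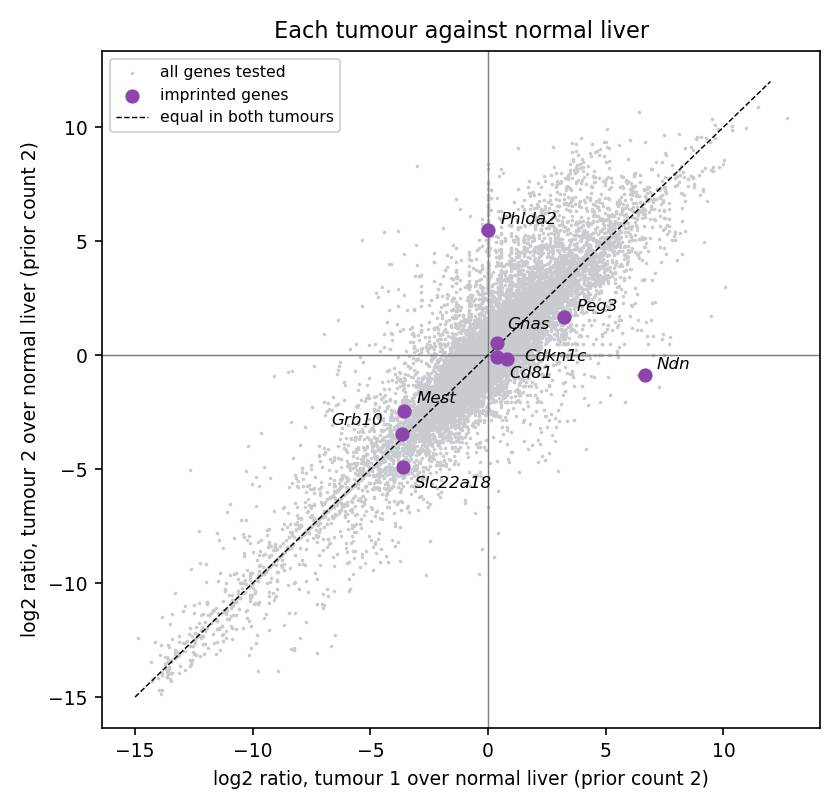
Log2 ratio of each tumour to the mean normal library, tumour 1 on the horizontal and tumour 2 on the vertical axis, with a prior count of 2. Grey points are the 14468 genes tested and purple points the 9 imprinted genes, of which Ndn and Phlda2 lie farthest from the line of equal values.

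In the normal livers all 9 filtered genes lay within 2-fold of each other, with log2 ratios of the table labelled double heterozygous to that labelled wild type from -0.10 for Cdkn1c to 0.22 for Cd81. Over 2-fold apart were 4.92% of all genes tested. H19, Phlda2 and Ndn had equal counts in both tables. Since these tables share counts beyond sampling, their closeness cannot show what the genotype does to imprinted genes in normal liver.

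A wider list of 54 imprinted genes was read beside these 10. Of them, 53 were in the tables, 11 had at most 3 counts in every table and 35 passed the filter. By edgeR 0 rose and 2 fell, where 2.23% of all genes tested were called higher and 5.19% lower, and 11 of the 35 had an unadjusted p under 0.05, near the 28% of all genes. DESeq2 called 2 higher and 7 lower, where it called 11.5% of all genes tested higher and 12% lower. The median log2 fold change of the list was 0.26, also with the 4 genes at 0 counts in a whole group set to their bound, and the median of all genes tested was 0.19. Slc38a4, an amino acid transporter gene of liver, fell to 7 and 16 counts in tumours 1 and 2, against 34221 and 37929 counts in the normal tables (log2 fold change -12.51, SE 1.06, edgeR adjusted p = 0.0182). Pon3, a lactone-cleaving enzyme gene of liver, fell to 133 and 226 counts in tumours 1 and 2, against 1603 and 1748 (log2 fold change -4.12, SE 0.56, edgeR adjusted p = 0.0330). The 8 hepatocyte markers were all lower in both tumours as well, with a median log2 fold change of -13.27. The part of hepatocyte RNA in the Slc38a4 and Pon3 values was not tested.

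Genes of the Dlk1-Dio3 locus showed the widest range of values that missed the threshold. The maternally expressed long RNAs Meg3 and Rian had 0 counts in both tumours, against 91 and 105 and against 29 and 70 counts in the normal tables, which is at least 59.2-fold (edgeR adjusted p = 0.0719) and at least 30.2-fold lower (adjusted p = 0.104). Dio3, the paternally expressed deiodinase gene of the same locus, had 242 and 128 counts in tumours 1 and 2 against 6 and 6 (log2 fold change 4.12, SE 1.26, edgeR adjusted p = 0.132). At the Igf2r locus, the cation transporter gene Slc22a3 was at 0 counts in both tumours and 111 and 120 in the normal tables (at least 70.0-fold lower, edgeR adjusted p = 0.0635), while Igf2r itself had a level of 353 CPM in tumour 1 and 237 CPM in tumour 2, against 431 CPM in normal liver (log2 fold change -0.55, SE 0.63, edgeR adjusted p = 0.598). In the Peg10 cluster Sgce had 174 and 5 counts in tumours 1 and 2 against 9 and 12, so that tumour 1 again held nearly all of the signal.

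Relatives of the 10 genes that are not imprinted, or not known to be, were read for comparison, and 23 of 24 passed the filter. Of these 2 rose and 2 fell, where 2.23% and 5.19% of all genes tested did, and 14 of 23 had an unadjusted p under 0.05, against 28% of all genes. Phlda3, a p53-regulated relative of Phlda2, rose to 1305 and 1474 counts in tumours 1 and 2, against 2 and 3 in the normal tables (log2 fold change 8.52, SE 0.90, edgeR adjusted p = 0.0229). Gnai1, an inhibitory counterpart of Gnas, rose to 638 and 682 counts against 6 and 8 (log2 fold change 5.68, SE 0.83, edgeR adjusted p = 0.0372). The liver transporter gene Slc22a7, of the family of Slc22a18, fell to 0 counts in both tumours, against 1430 and 1490 counts in the normal tables, and was at least 882-fold lower (edgeR adjusted p = 0.0225). Cdkn1a and Cdkn1b, the CDK inhibitor genes related to Cdkn1c, also lay higher without passing the threshold. The log2 fold change was 4.15 for Cdkn1a (SE 0.81, edgeR adjusted p = 0.0603) and 1.51 for Cdkn1b (SE 0.76, edgeR adjusted p = 0.272). The receptor adaptor genes Grb7 (-2.27, SE 0.52, edgeR adjusted p = 0.0805) and Grb14 (-2.54, SE 0.78, adjusted p = 0.134) lay in the same direction as Grb10 and did not pass. Among the tetraspanin genes Cd9 was at 3.14 (SE 0.68, edgeR adjusted p = 0.0728), against 0.17 for Cd81. Cd63 (2.80) and Cd151 (1.94) also lay higher in the tumours, while Cd82 (-1.01) and Cd53 (-1.36) lay lower, and none of them passed.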

How the data were processed

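Per the labels' protocols, TRIZOL was used to extract RNA and an Illumina TruSeq kit to build libraries. The authors deposited raw counts of reads for each gene symbol, with no normalization. The submitters' processing notes name the build mm9 and, with no role or order, TopHat2 2.0.10, HTSeq, DESeq2, Trimmomatic and FastQC. Strand settings were not given in the sources used here. Each table's 5 lines that name no gene were left out. They hold reads outside genes (13.6% and 16.4% of each table's total in tumours 1 and 2, 24.4% and 31.5% in the normal tables labelled double heterozygous and wild type) and reads aligned more than once (45.6% and 42.3%, 51.5% and 30.7%).

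The rounded mean of the normal tables served as 1 library. edgeR 4.0.16 in R 4.3.3 was fitted over all genes (TMM, filterByExpr at min.count 10, then glmQLFit with glmQLFTest). CPM values are TMM-scaled, from this fit, except summed marker levels, scaled over 4 libraries. The SE was derived as the log2 fold change over the square root of F. DESeq2 1.42.0 was an alternative. The common dispersion was 0.442. The fit was also run on simulated data with a lower dispersion, no genes of low counts and large changes only. That run does not show how the fit performs on these data. A floor of 3 counts per library was used for genes at 0. Comparisons of single libraries used a prior count of 2. Shared sequence is the percentage of a gene's 31-mers, from GENCODE M21 (GRCm38), found in another gene. No coordinates of counted genes are given because that build is not mm9. The 10 genes and all lists were chosen with earlier results of these data known. All 10 genes were to be named, and of other lists those called, or else up to 5 with the largest change and a mean of at least 10 CPM in either group. Igf2, Kcnq1ot1 and other locus neighbours, and Cdkn1b, Grb7 and Grb14, were named for their place or family, with their values seen. Some genes that this rule names are not reported here.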

Additional observations from a re-analysis of the deposited data

How the results depend on the processing

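Of the 9 fold changes, each kept its direction under every scaling, normal table, filter and tool that gave it a value. Scaling by total counts alone moved the median log2 fold change of all genes by 1.37, and upper quartile scaling by 0.23, and Cd81 at 1.54 and Gnas at 1.83 under the first then lay near that shifted median of 1.56. Counts of calls moved more. With both normal tables as separate libraries, 3058 genes were called higher and 3157 lower (22.6% and 23.4% of 13511). Of the 10 genes 1 was called higher (Peg3) and 3 lower (Slc22a18, Grb10 and Mest), and of the wider imprinted list 8 and 8. Cdkn1c, Phlda2 and Ndn did not pass the filter of that fit, and how many of the wider list did is not given here. That fit treats the tables that share counts as replicates. DESeq2 called 1666 higher and 1743 lower, 2 and 2 of the 10 genes and 2 and 7 of the wider list, and gave no adjusted p to 842 genes, Cdkn1c and Mest among them. Without the filter on low counts the calls were 903 and 1383 of 18506 genes, with 1 of the 10 genes (Slc22a18) and 6 of the wider list lower. Scaled by total counts alone they were 635 and 472, with 1 of the wider list lower. RLE size factors gave 414 and 938, with 1 of the 10 genes lower (Slc22a18).

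Leaving out a tumour leaves no residual degrees of freedom and gives values without a test. They are differences of log2 CPM with a prior count of 2, not fitted fold changes. The fitted fold changes of Phlda2, Grb10 and Mest lie outside the ranges given here. Between the value without tumour 1 and that without tumour 2, the log2 ratio to normal liver ranged from -0.17 to 0.81 for Cdkn1c, from -0.0896 to 0.39 for Cd81, from -0.89 to 6.65 for Ndn, from 0.00 to 5.47 for Phlda2, from 1.66 to 3.24 for Peg3, from 0.39 to 0.51 for Gnas, from -4.93 to -3.62 for Slc22a18, from -3.67 to -3.45 for Grb10 and from -3.57 to -2.47 for Mest. No paired analysis was possible because no label links a normal table to a tumour. Depth limits H19, Cdkn1c and Mest, which had under 20 counts in every table.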

Other observations

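Factors that keep imprints through cell division, such as the maintenance methyltransferase Dnmt1 and its partner Uhrf1, were read as a list of 11 genes, of which 9 passed the filter. By edgeR 0 were called, 3 of 9 had an unadjusted p under 0.05, where 28% of all genes did, and in 7 both tumours lay above normal liver, against 43.1% of all genes tested. Uhrf1 had 249 and 3977 counts in tumours 1 and 2, against 1 and 2 counts in the normal tables (log2 fold change 8.98, SE 2.52, edgeR adjusted p = 0.115). Zfp57, a zinc finger gene known for guarding imprints in early embryos, had 233 and 611 counts in tumours 1 and 2, against 3 and 3 counts (log2 fold change 6.17, SE 1.15, edgeR adjusted p = 0.0558). Dnmt1 had 1094 and 8641 counts in tumours 1 and 2, against 144 and 205 (log2 fold change 3.82, SE 1.45, edgeR adjusted p = 0.185). Trim28, the partner of Zfp57, and Smchd1, a chromatin protein of the inactive X, did not pass either. Trim28 was at 1.83 on the log2 scale (SE 0.65, edgeR adjusted p = 0.167) and Smchd1 at 1.73 (SE 0.81, edgeR adjusted p = 0.25). Uhrf1 and Dnmt1 were over 4-fold lower in tumour 1 than in tumour 2, as were the 5 genes of dividing cells, and the part of dividing cells in these values was not tested. Zhx2, a repressor of H19 and of Afp in mouse liver after birth, had 452 and 743 counts in tumours 1 and 2, against 373 and 396 counts in normal liver (log2 fold change -0.26, SE 0.58, edgeR adjusted p = 0.793). Afp, the fetal albumin relative, had 19 and 85 counts against 6 and 6.

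For each filtered gene the nearest patterns were sought over 3 libraries (tumour 1, tumour 2 and mean normal), as the root mean square difference of centred log2 CPM. Ndn had 1 gene within 0.25, the prostaglandin receptor gene Ptger3, at 438 and 1 counts in tumours 1 and 2 and 1 and 2 in the normal tables, followed by Bnc1 (270 and 0, and 0 and 0) and Mmp12 (375 and 0, and 0 and 0). Phlda2 had 27, among them Ankle1, at 2 and 197 counts in tumours 1 and 2 and 1 in each normal table, and Cdh11, at 16 and 1173 counts in tumours 1 and 2 and 5 and 20 in the normal tables. Of the 84 genes nearest Peg3, the first were Pip4k2a, Casp4 and Sfmbt2, of which Sfmbt2 is itself imprinted. The nearest to Slc22a18 were Dcaf12l1, Oplah and LOC100503855, to Grb10 Spata2L, Pvrl1 and LOC100504672, and to Mest Trim72, A930013F10Rik and Hyal3. Cd81 and Gnas had 1278 and 1427 such genes and Cdkn1c 644, so their patterns are common ones. With 3 libraries, likeness of this kind describes these samples only.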
